A study of Mus musculus with 88 samples.

Results

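The genes described here encode Polycomb repressive complex 2 (PRC2), a chromatin complex that adds methyl groups to a lysine in the tail of histone H3. The 7 genes were Ezh2, Ezh1, Eed, Suz12, Mtf2, Phf19 and Jarid2, chosen by name among the 21942 loci of a table of RNA levels in mouse embryonic stem cells (ESCs) and fibroblasts. Each had 1 locus in the table, none of them on the X chromosome. All 7 stood at 1 RPKM (reads scaled to gene length and library size) or more in each of the 26 RNA-seq libraries, so none was left out by the filter on low values.

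PRC2 marks and keeps silent the promoters of developmental regulators in ESCs. Ezh2 and Ezh1 are its alternative catalytic subunits, with Ezh1 the weaker methyltransferase, and Eed and Suz12 are core subunits without which the complex does not assemble or act. Mtf2 and Phf19 are Polycomb-like proteins that bring one form of the complex to CpG-rich DNA, while Jarid2 belongs to the other form, which it helps to recruit and stimulate.

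The libraries asked how medium, sex chromosomes and cross bear on RNA levels in newly derived ESC lines. In the B6 cross (F1 of 129X1/SvJ and C57BL6), 4 ESC lines were sequenced in each of 4 media, 2 XX and 2 XY lines per medium, all at passage 3. The media were a2i (like 2i, but with Src inhibited and not MEK), t2i (2i with less MEK inhibitor), 2i (inhibitors of MEK and GSK3) and serum. In the MSM cross (F1 of 129X1/SvJ and MSM/Ms), the groups were 1 fibroblast culture made from 2i ESCs (2i MEF, XX line 15, labelled p5+p1), 2 mouse embryonic fibroblast cultures (MEF 2 and MEF 4, p1), 1 line moved from 2i to serum (2i-S, XX line 15, labelled p3+14), 4 ESC lines in 2i (XX 15 and 2, XY 20 and 23, passage 3) and 2 in serum (S, XX 8 and XY 12, passage 3). Line 15 thus supplied 3 libraries. The labels of the MEFs conflict on their sex, and they carried no sex in the fits. Libraries were treated as separate lines, and whether equal line numbers in different media mark one line is not given.

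RPKM summed to between 624274 and 934309 per library, with 11234 to 12558 genes at 1 RPKM or more. The values are RPKM, with no counts beside them, so the depth of each library is unknown. The 4 B6-cross serum libraries stood apart in their fibroblast markers. All 16 fibroblast markers checked reached 1 RPKM in each of them, and the markers summed to 1544 to 2265 RPKM, against 319 to 435 in a2i, 281 to 394 in t2i and 228 to 397 in 2i. Measured against the MEFs, the median of 14 markers put fibroblast RNA at 8.08% to 14.8% of the serum libraries, and at 0.0412% or less of the other B6-cross ESC libraries. The 2i MEF library stood at 195% by this measure, so the share depends on the fibroblasts taken as reference. Postn, Lum, Dcn and Prrx1 were listed at 0 in all 2i libraries, Postn in all t2i libraries and Lum in all a2i libraries. The fits with B6-cross serum were therefore repeated after subtracting that share of the MEF level, with the remainder rescaled to the whole, and those values are given for the called members. The 6 ESC identity markers reached 1 RPKM in all ESC libraries, and summed to 1.41 RPKM or less in the fibroblasts.

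The promoters of Mtf2, Suz12 and Ezh1 are shown because these 3 genes were called between the sexes in the B6 cross. They are the 250 bases before the first RefSeq start (GRCm38.p6), read 5′ to 3′ on the gene's strand, and capitals mark matches to motifs searched on both strands.
Mtf2, chr5:108065424-108065673, plus strand: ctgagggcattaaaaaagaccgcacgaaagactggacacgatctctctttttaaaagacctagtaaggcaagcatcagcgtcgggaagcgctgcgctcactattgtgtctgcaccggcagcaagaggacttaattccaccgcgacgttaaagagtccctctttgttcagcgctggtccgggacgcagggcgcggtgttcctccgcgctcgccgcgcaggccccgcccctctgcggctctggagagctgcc
Suz12, chr11:79992856-79993105, plus strand: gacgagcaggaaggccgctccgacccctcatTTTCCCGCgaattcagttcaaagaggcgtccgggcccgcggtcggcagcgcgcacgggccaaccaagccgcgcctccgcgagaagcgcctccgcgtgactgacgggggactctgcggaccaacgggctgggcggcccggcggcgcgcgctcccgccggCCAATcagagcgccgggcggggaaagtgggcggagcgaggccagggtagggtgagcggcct
Ezh1, chr11:101226464-101226713, minus strand: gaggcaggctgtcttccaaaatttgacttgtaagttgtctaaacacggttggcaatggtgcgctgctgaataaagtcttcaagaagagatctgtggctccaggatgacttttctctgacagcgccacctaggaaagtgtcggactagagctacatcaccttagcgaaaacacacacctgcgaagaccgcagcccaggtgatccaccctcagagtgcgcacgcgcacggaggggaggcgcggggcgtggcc
The search covered TTTNNCGC (an E2F motif, in 4.28% of 32851 RefSeq promoters of this length), CCAAT (33.85%) and the palindromic NRF1 motif (0.78%). The Suz12 window held 1 match to TTTNNCGC and 1 to CCAAT, which do not overlap, and the letters of none of the 3 motifs occur in the Mtf2 and Ezh1 windows. The windows held 23 CpG dinucleotides in Mtf2, 37 in Suz12 and 14 in Ezh1, against a median of 6 over all promoters. Their GC content was 59.2%, 73.6% and 55.2%, against a median of 52.4%. Mtf2 has a second RefSeq start, whose window (chr5:108077915-108078164) is not shown. It held 1 match to CCAAT, 2 CpG dinucleotides and a GC content of 46.8%. All 7 genes matched the RefSeq table.

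Levels differed widely within the complex. RPKM is per gene length, so levels of different genes can be set side by side. Over the 26 libraries Eed had the highest mean level, 262 RPKM, followed by Ezh2 with 170 RPKM, Mtf2 with 112 RPKM, Suz12 with 94.3 RPKM and Jarid2 with 57.8 RPKM. Ezh1 averaged 10.8 RPKM and Phf19 averaged 4.87 RPKM, so one catalytic subunit and one Polycomb-like protein were scarce at the RNA level beside the others. The ratio of Ezh2 RPKM to Ezh1 RPKM lay between 9.44 and 32.0 in ESC libraries, and between 6.83 and 9.23 in the 3 fibroblast libraries.

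**Figure D1:**
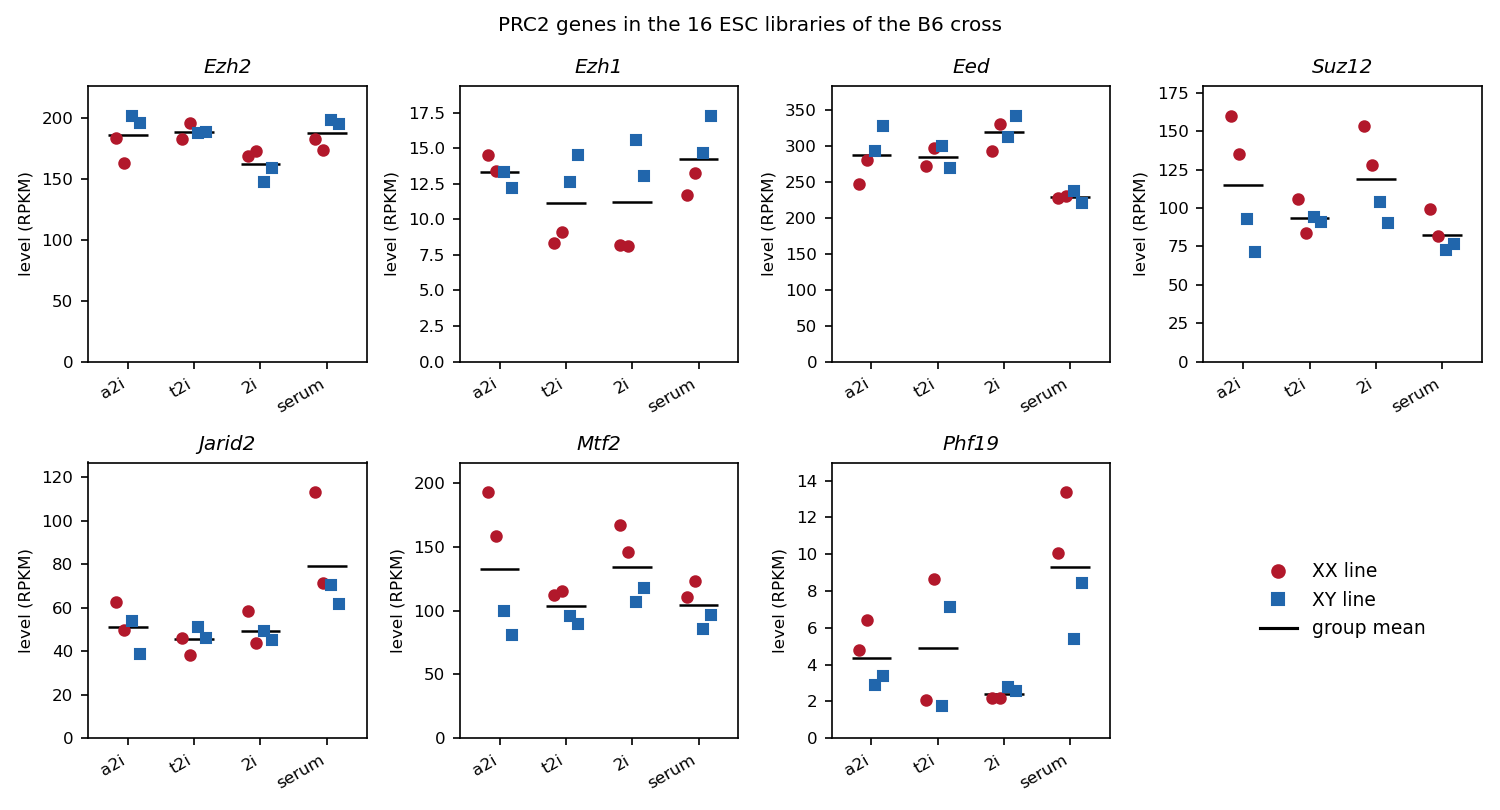
RPKM (vertical axes, starting at 0) of the 7 genes in the 16 ESC libraries of the B6 cross, by medium, with XX lines as red circles, XY lines as blue squares and group means as bars. Eed stands higher in a2i, t2i and 2i than in serum, Jarid2 stands highest in serum, and Mtf2 is higher in the XX than in the XY lines within each medium.

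In the B6 cross, the PRC2 genes differed between 2i and serum in both directions. Eed, Suz12 and Mtf2 were higher in 2i, and Ezh2, Ezh1, Jarid2 and Phf19 were lower. All 7 were called by limma (adjusted p under 0.05), in a comparison that called 47.6% of the 13150 genes tested (16.8% higher and 30.7% lower), so a call alone does not set a gene apart here. Differences are in log2(RPKM + 1), with n = 4 lines in each medium, and average the XX and XY differences. The median difference of all genes was -0.09, and 0.08 after quantile normalization. Serum libraries also summed higher for markers of other cell types. Primitive endoderm markers summed to 13.0 to 24.2 RPKM in 2i and 68.5 to 219 RPKM in serum (5 of 7 tested were lower in 2i), and trophoblast markers to 47.1 to 51.0 RPKM in 2i and 93.0 to 199 RPKM in serum (4 of 5 lower). In the MEFs the primitive endoderm markers themselves summed to 195 and 244 RPKM, and the trophoblast markers to 11.3 and 32.4 RPKM. The primitive endoderm sums in serum may thus hold fibroblast RNA too, which was not tested. The part of these cell types in the differences was not tested. In bulk RNA, fewer cells of a type and less RNA per cell cannot be told apart.

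Of the catalytic subunits, Ezh2 had 168 and 173.0 RPKM in the XX and 147 and 159 RPKM in the XY lines in 2i, against 182 and 173.1 RPKM in the XX and 198 and 195 RPKM in the XY lines in serum. The groups did not overlap but nearly touched at 173 RPKM. Ezh2 was lower in 2i by a log2 difference of -0.21 (SE 0.06, adjusted p = 0.016), or -0.37 after subtracting and rescaling for fibroblast RNA (adjusted p = 0.00053). Without 2i XY line 2 the difference was -0.18 (adjusted p = 0.059). Ezh1 had 8.20 and 8.09 RPKM in the XX and 15.6 and 13.1 RPKM in the XY lines in 2i, against 11.7 and 13.3 RPKM in the XX and 14.7 and 17.3 RPKM in the XY lines in serum. The media overlapped, and the XX lines in 2i were the lowest. Its difference was -0.35 (SE 0.10, adjusted p = 0.0099), -0.49 after subtraction and rescaling (adjusted p = 0.0026), and -0.15 after quantile normalization (adjusted p = 0.21).

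Both core subunits without catalytic activity were higher in 2i. Eed, which binds the methylated histone tail, had 294 and 330.4 RPKM in the XX and 313 and 343 RPKM in the XY lines in 2i, against 228 and 231 RPKM in the XX and 238 and 220.4 RPKM in the XY lines in serum. Every 2i library stood above every serum library, with a difference of 0.48 (SE 0.08, adjusted p = 0.00026). It was 0.34 after subtraction and rescaling (adjusted p = 0.0041). Suz12, which holds the complex together, had 154 and 128 RPKM in the XX and 104 and 90.2 RPKM in the XY lines in 2i, against 99.6 and 81.8 RPKM in the XX and 72.4 and 76.7 RPKM in the XY lines in serum. The media overlapped because serum XX line 17 stood above 2i XY line 6. The difference was 0.50 (SE 0.11, adjusted p = 0.003), or 0.38 after subtraction and rescaling (adjusted p = 0.017).

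The 2 Polycomb-like genes went opposite ways. Mtf2 had 167 and 146 RPKM in the XX and 107 and 118 RPKM in the XY lines in 2i, against 111 and 123 RPKM in the XX and 85.9 and 96.5 RPKM in the XY lines in serum. It overlapped between the media and was higher in 2i by 0.36 (SE 0.09, adjusted p = 0.0069), a call that was lost after subtraction and rescaling (0.19, adjusted p = 0.14). Phf19 had 2.17 and 2.17 RPKM in the XX and 2.80 and 2.55 RPKM in the XY lines in 2i, against 10.1 and 13.4 RPKM in the XX and 5.39 and 8.42 RPKM in the XY lines in serum. The groups were far apart, and the difference of -1.54 (SE 0.35, adjusted p = 0.0031) had the greatest size among the 7 genes. It was -1.62 after subtraction and rescaling (adjusted p = 0.0033) and -1.22 after quantile normalization (adjusted p = 0.011).

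Jarid2 was lower in 2i than in serum. It had 58.5 and 43.9 RPKM in the XX and 49.4 and 45.2 RPKM in the XY lines in 2i, against 113 and 71.3 RPKM in the XX and 70.3 and 61.7 RPKM in the XY lines in serum. No 2i library reached the lowest serum library, and serum XX line 17 was far above the others. The difference was -0.64 (SE 0.16, adjusted p = 0.0045), with a range of -0.82 (after subtraction and rescaling) to -0.48 over the 14 alternatives run, all of them called.

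**Figure D2:**
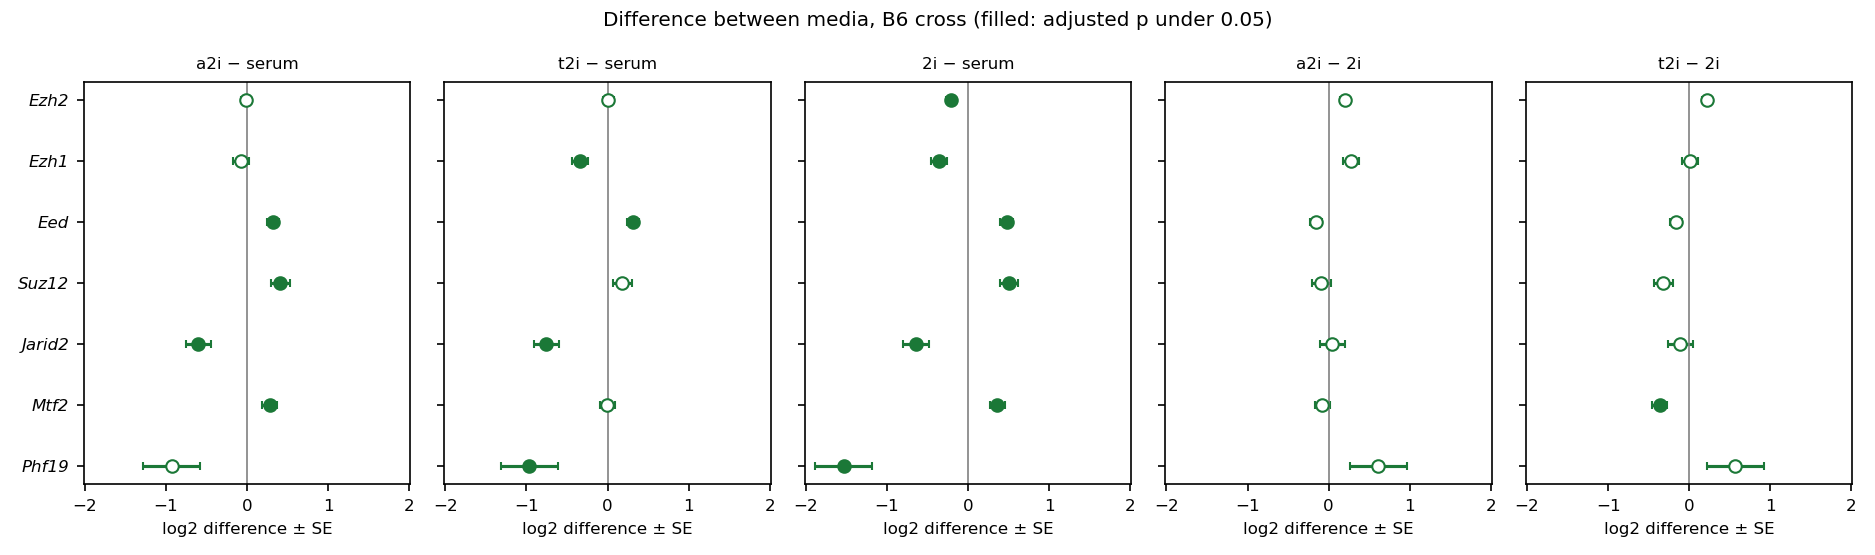
Log2 differences between media of the B6 cross for the 7 genes (horizontal axes, log2(RPKM + 1) units; points are limma estimates, bars 1 SE, filled points adjusted p under 0.05). Jarid2 lies left of 0 and Eed right of 0 in each of the 3 comparisons with serum, and Mtf2 in t2i is the filled point among the comparisons with 2i.

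In t2i and a2i the same 4 serum libraries served as the control, so the 3 comparisons with serum are not independent. Of the 7 genes, t2i against serum called 4 (43.8% of all genes were called) and a2i against serum called 4 (37.4% of all genes). Jarid2 and Eed were called in both. Jarid2 had 46.2 and 38.4 RPKM in the XX and 51.1 and 46.2 RPKM in the XY lines in t2i, and 62.5 and 49.6 RPKM in the XX and 53.7 and 38.8 RPKM in the XY lines in a2i, of which XX line 4 alone stood within the serum range. Its differences were -0.75 in t2i (SE 0.16, adjusted p = 0.0018) and -0.60 in a2i (SE 0.16, adjusted p = 0.0091), called in each of the 14 alternatives run for either medium. After subtraction and rescaling they were -0.93 in t2i and -0.77 in a2i.

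Eed had 273 and 298 RPKM in the XX and 300.3 and 269.6 RPKM in the XY lines in t2i, and 247 and 281 RPKM in the XX and 293 and 328 RPKM in the XY lines in a2i. All 8 libraries stood above the 4 serum libraries. The differences were 0.31 in t2i (SE 0.08, adjusted p = 0.0057) and 0.32 in a2i (SE 0.08, adjusted p = 0.0062). After subtraction and rescaling they were 0.17 and 0.18 (adjusted p = 0.10 for both).

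Like those of Eed, the other calls against serum changed with single libraries or with scaling. Ezh1 was lower in t2i by -0.34 (SE 0.10, adjusted p = 0.013), with -0.48 after subtraction and rescaling, -0.14 after quantile normalization (adjusted p = 0.23) and -0.30 and -0.29 without t2i XY line 2 or serum XY line 16 (adjusted p = 0.058 and 0.059). In a2i its 95% interval against serum was -0.29 to 0.14. Suz12 was higher in a2i by 0.41 (SE 0.11, adjusted p = 0.013), and by 0.29 after subtraction and rescaling (adjusted p = 0.07). That call was also lost without a2i XX line 4 (0.35), a2i XY line 1 (0.32) or serum XX line 46 (0.34). Mtf2 was higher in a2i by 0.28 (SE 0.09, adjusted p = 0.032), and by 0.12 after subtraction and rescaling (adjusted p = 0.41). The Mtf2 call was lost without a2i XX line 4 (0.21), a2i XY line 1 (0.20), serum XY line 10 (0.24) or serum XX line 17 (0.24).

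Phf19 split the t2i lines. It had 2.05 and 8.64 RPKM in XX lines 1 and 3 and 1.76 and 7.11 RPKM in XY lines 2 and 6 in t2i, and 4.80 and 6.44 RPKM in the XX and 2.89 and 3.38 RPKM in the XY lines in a2i. One line of each sex in t2i reached the serum range while the other stayed below each 2i library. Phf19 was lower than in serum by -0.97 in t2i (SE 0.35, adjusted p = 0.041) and differed by -0.93 in a2i (SE 0.35, adjusted p = 0.055). The t2i call was lost on leaving out t2i XX line 1 (-0.55), t2i XY line 2 (-0.58) or any 1 of the 4 serum lines (-1.11 to -0.83). It was also lost with no filter (adjusted p = 0.074), after quantile normalization (-0.68, adjusted p = 0.13) and after subtraction without rescaling (-0.88, adjusted p = 0.062), but not with rescaling (-1.05, adjusted p = 0.038). Fits of 2 media alone lost the call in t2i (adjusted p = 0.099) and made one in a2i (adjusted p = 0.0033). After subtraction and rescaling the a2i difference was -1.01 (adjusted p = 0.051).

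Among the serum-free media, Mtf2 alone of the 7 genes was called, in t2i against 2i (8.08% of all genes called). It had 112 and 116 RPKM in the XX and 95.8 and 90.0 RPKM in the XY lines in t2i, overlapping the 2i lines. It was lower in t2i by -0.36 (SE 0.09, adjusted p = 0.034), and leaving out any 1 of 7 of the 8 libraries lost the call, with differences of -0.31 to -0.40. Ezh2, at 183 to 196 RPKM in t2i and 147 to 173 RPKM in 2i, did not overlap between these media, but its difference of 0.22 missed the threshold (SE 0.06, adjusted p = 0.052). The unfiltered fit gave an adjusted p of 0.035 for it.

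None of the 7 genes was called in a2i against 2i, where 13.8% of all genes were called, or in a2i against t2i, where 1.0% were. In a2i against 2i, Ezh2 differed by 0.20 (SE 0.06, adjusted p = 0.056) and Ezh1 by 0.28 (SE 0.10, adjusted p = 0.081). Ezh2 was called there without a2i XX line 18 (0.24, adjusted p = 0.039). Phf19 did not overlap, at 2.89 to 6.44 RPKM in a2i and 2.17 to 2.80 RPKM in 2i, and its difference was 0.61 (SE 0.35, adjusted p = 0.29). It was called when a2i and 2i were fitted on their own (adjusted p = 0.021). The 95% intervals of a2i against t2i were -0.16 to 0.12 for Ezh2, -0.16 to 0.17 for Eed and -0.72 to 0.80 for Phf19.

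Averaged over the 4 media of the B6 cross, Mtf2 and Suz12 were higher and Ezh1 was lower in XX than in XY lines, where 41.5% of all genes were called (21.4% higher and 20.0% lower), so 3 of 7 is close to the share of all genes. Mtf2 differed by 0.52 (SE 0.07, adjusted p = 4.6e-05) and Suz12 by 0.42 (SE 0.08, adjusted p = 0.0012). Ezh1 differed by -0.38 (SE 0.07, adjusted p = 0.00076), with n = 8 XX and 8 XY libraries for each gene. Some line numbers recur between media, and no term in the fit held this. The 3 calls held in each of the 22 alternatives run, at 0.48 to 0.57 for Mtf2, 0.37 to 0.47 for Suz12 and -0.41 to -0.35 for Ezh1. Without the serum libraries the differences were 0.57, 0.47 and -0.40. The 95% intervals for the uncalled genes were -0.14 to 0.05 for Ezh2, -0.19 to 0.04 for Eed, -0.08 to 0.39 for Jarid2 and -0.20 to 0.88 for Phf19.

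**Figure D3:**
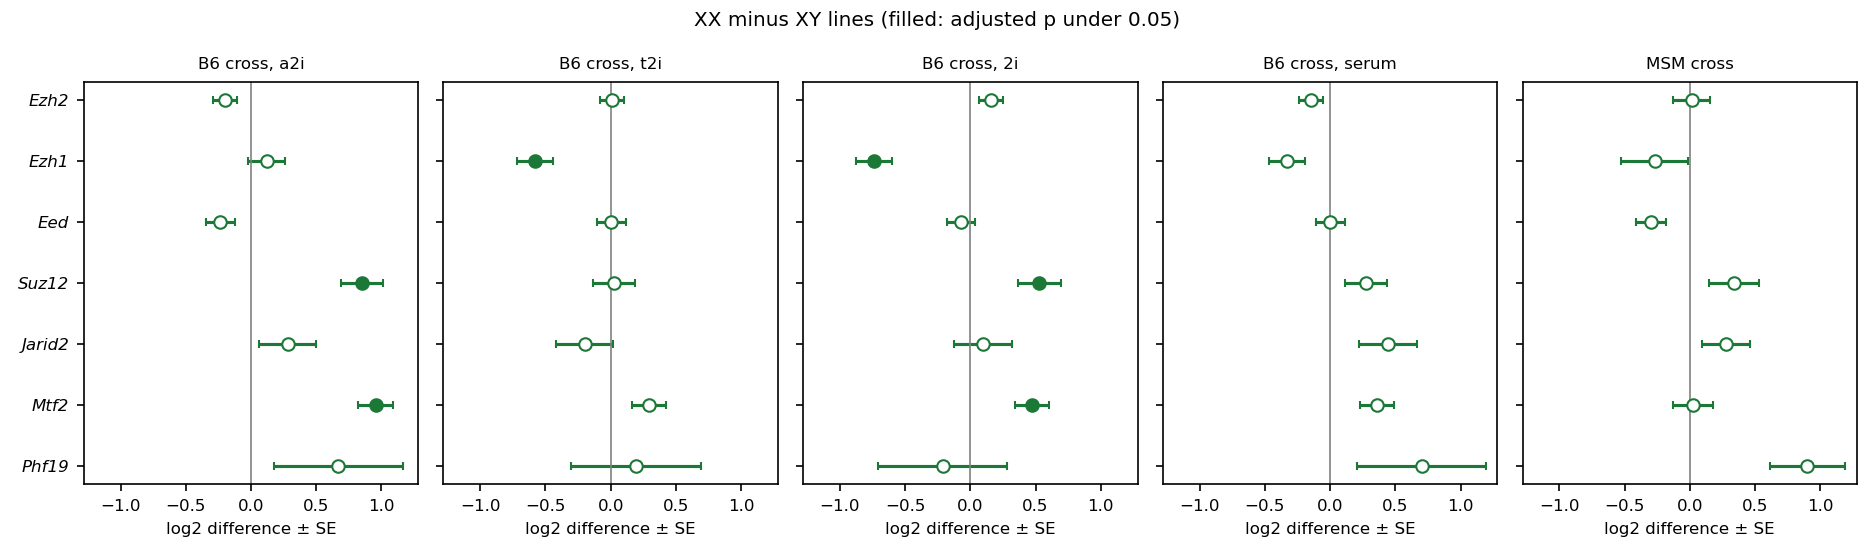
XX minus XY difference of the 7 genes in each medium of the B6 cross and over the ESC lines of the MSM cross (horizontal axes, log2(RPKM + 1) units; points are limma estimates, bars 1 SE, filled points adjusted p under 0.05). Mtf2 lies right of 0 in each B6-cross medium, with 0.95 in a2i, and is filled in a2i and 2i. Ezh1 lies left of 0 in t2i, 2i and serum and in the MSM cross, and is filled in t2i and 2i.

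The sex difference of Mtf2 had its highest estimate in a2i. Mtf2 had 193 and 158 RPKM in XX lines 4 and 18 and 99.7 and 80.9 RPKM in XY lines 1 and 3 in a2i, and in each of the 4 media both XX lines stood above both XY lines. The difference was 0.95 in a2i (SE 0.13, adjusted p = 0.00032), where 28.3% of all genes were called, 0.29 in t2i (SE 0.13, adjusted p = 0.15), 0.47 in 2i (SE 0.13, adjusted p = 0.02) and 0.36 in serum (SE 0.13, adjusted p = 0.13), with n = 2 and 2 lines in each. The call in 2i was lost without XX line 3 (0.38) or XY line 2 (0.40).

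Suz12 had 160.2 and 135 RPKM in the XX and 92.6 and 71.2 RPKM in the XY lines in a2i, and 106 and 83.7 RPKM in the XX and 94.2 and 90.8 RPKM in the XY lines in t2i. XX lines stood above XY lines in a2i, 2i and serum, and the sexes overlapped in t2i. The difference was 0.85 in a2i (SE 0.16, adjusted p = 0.0024), 0.53 in 2i (SE 0.16, adjusted p = 0.031) and 0.27 in serum (SE 0.16, adjusted p = 0.37). In t2i its 95% interval was -0.32 to 0.38. The call in 2i, where 25.1% of all genes were called, was lost without XX line 3 (0.40), XY line 2 (0.63) or XY line 6 (0.43).

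Ezh1 followed another order of media. It had 14.5 and 13.4 RPKM in the XX and 13.3 and 12.2 RPKM in the XY lines in a2i, and 8.35 and 9.13 RPKM in the XX and 12.6 and 14.6 RPKM in the XY lines in t2i. XX lines stood below XY lines in t2i, 2i and serum, and above them in a2i. The difference was -0.58 in t2i (SE 0.14, adjusted p = 0.011), where 18.9% of all genes were called, -0.74 in 2i (SE 0.14, adjusted p = 0.002) and -0.33 in serum (SE 0.14, adjusted p = 0.19), where 7.29% were. In a2i the 95% interval was -0.18 to 0.42. The t2i call was lost without XX line 1 (-0.52) or XY line 6 (-0.49).

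The difference between media in the sex effect was tested for each gene. For Ezh1, the XX minus XY difference was 0.86 higher in a2i than in 2i (SE 0.20, adjusted p = 0.03), in a test that called 4.93% of all genes. It was called in 4 of 11 alternatives, which ran from 0.71 to 0.98. The call was lost after quantile normalization (0.71) and without any of 3 lines in 2i (XX 3, 0.87; XX 4, 0.85; XY 2, 0.74) or 3 in a2i (XX 4, 0.80; XY 1, 0.92; XY 3, 0.80). In a2i against t2i, 3 genes missed the threshold, Suz12 by 0.82 (SE 0.23, adjusted p = 0.09), Mtf2 by 0.66 (SE 0.19, adjusted p = 0.092) and Ezh1 by 0.70 (SE 0.20, adjusted p = 0.091). That test called 0.791% of all genes. None of the 7 was called in the tests of t2i against 2i and of 2i against serum, which called 1.26% and 8.17% of all genes.

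Suz12 and Mtf2 varied together over the 16 B6-cross libraries, with Pearson's r of 0.89 and Spearman's rho of 0.72 between their log2 levels. Eed ran opposite to Jarid2 (r = -0.77) and to Phf19 (r = -0.71). These are descriptions over libraries that share media and sex, and r between Eed and Suz12 was 0.13. The genes most like each member by r over the same libraries, among 13149 others, were Fer, Dis3 and Psmg2 for Ezh2 (0.84, 0.83 and 0.82) and Taok3, Tmem198b and Csnk1a1 for Ezh1 (0.92, 0.91 and 0.91). They were Brk1, Rps29 and Mrpl50 for Eed (0.92, 0.91 and 0.91) and Phf8, Dsg2 and Adamts9 for Suz12 (0.93, 0.91 and 0.90). For Mtf2 they were Zbtb44, Rab11fip4 and Plekhh1 (0.92, 0.91 and 0.91), for Phf19 AW551984, Gnaq and Casz1 (0.86, 0.86 and 0.84), and for Jarid2 Zfp91 and Hells (0.94 and 0.91).

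**Figure D4:**
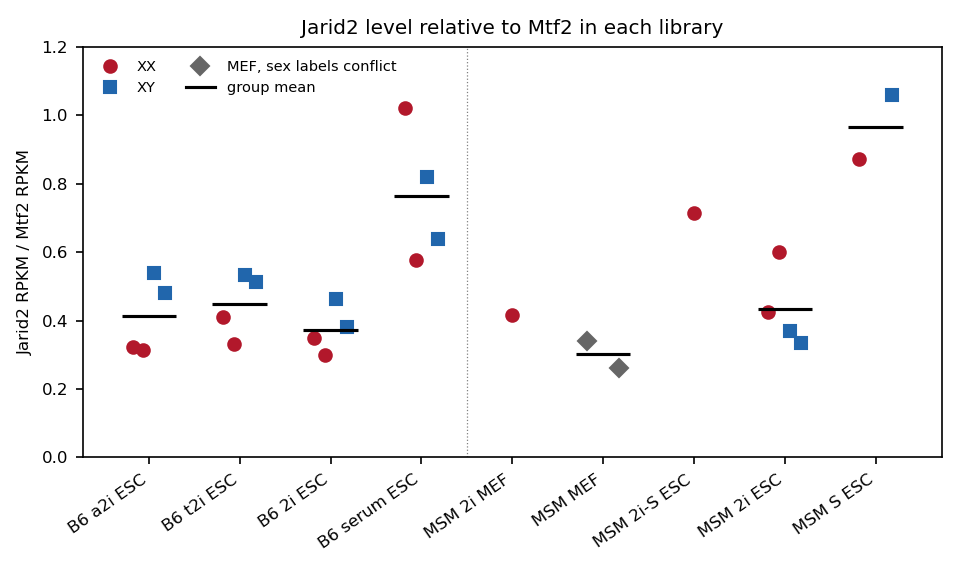
Ratio of Jarid2 RPKM to Mtf2 RPKM (vertical axis, linear from 0) in each of the 26 libraries, with XX lines as red circles, XY lines as blue squares, MEFs as grey diamonds and group means as bars. Each ESC library derived in serum stands at 0.578 or more, and each of the 12 B6-cross libraries in a2i, t2i or 2i at 0.539 or less.

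The balance of Jarid2 to Mtf2, which belong to alternative forms of PRC2, differed between serum and the other media in the B6 cross. The ratio of their RPKM was 0.313 to 0.539 in a2i, 0.332 to 0.533 in t2i and 0.30 to 0.463 in 2i, against 0.578 to 1.02 in serum. In the MSM cross it was 0.714 in the 2i-S library and 0.334 to 0.602 in 2i, against 0.871 and 1.06 in S. Serum lines stood above the serum-free lines within each cross, and the 2i-S library lay between 2i and S. The ratio is given as a description, with no test. In the MEFs the ratio was 0.262 and 0.341, below each serum library.

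In the MSM cross, Jarid2 was again lower in 2i than in serum. It had 60.0 and 84.5 RPKM in XX lines 15 and 2 and 55.2 and 56.0 RPKM in XY lines 20 and 23 in 2i, against 125 RPKM in XX line 8 and 114 RPKM in XY line 12 in S. The groups did not overlap, and the difference was -0.92 (SE 0.20, adjusted p = 0.019, n = 4 and 2 lines). Jarid2 was the only one of the 7 called, among 17.0% of all genes. The call was lost without S XX line 8 (-1.02), S XY line 12 (-0.81) or 2i XY line 20 (-0.90). Fibroblast RNA made up 0.0462% to 0.601% of the 2i and 0.613% and 2.23% of the S libraries, and after subtraction and rescaling the difference was -0.93 (adjusted p = 0.017).

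Suz12 also did not overlap in that cross, with 119 and 140.3 RPKM in the XX and 116 and 114 RPKM in the XY lines in 2i, against 101 RPKM in the XX and 62.5 RPKM in the XY line in S. Its difference of 0.61 missed the threshold (SE 0.20, adjusted p = 0.074). Phf19, low in 2i in the B6 cross, had 6.56 and 3.75 RPKM in the XX and 3.08 and 1.14 RPKM in the XY lines in 2i, against 4.10 RPKM in the XX and 2.22 RPKM in the XY line in S. The groups overlapped. The 2i minus serum effect on Phf19 was -1.59 in the B6 cross relative to the MSM cross (SE 0.41, adjusted p = 0.025), in a test over 14 libraries that called 11.6% of all genes. That call was lost after quantile normalization (-1.27) and after subtracting fibroblast RNA without rescaling (-1.53), but not with rescaling (-1.68). It was also lost without S XX line 8 (-1.41), S XY line 12 (-1.77), MSM 2i XY line 20 (-1.42), B6 2i XX line 4 (-1.50) or B6 serum XX line 46 (-1.42). The other 6 genes were not called in that test, in which cross and sequencing or processing batch cannot be told apart. Ezh2 was called after quantile normalization (-0.48, adjusted p = 0.049), and Jarid2 had a 95% interval of -0.28 to 0.82.

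The sex differences of the B6 cross were not called in the MSM cross, where 3.44% of all genes were called and none of the 7. Mtf2 had 130.7 RPKM in the XX 2i-S library and 141 and 140.3 RPKM in the XX lines in 2i, against 149 and 168 RPKM in the XY lines in 2i. In S it had 144 RPKM in the XX and 108 RPKM in the XY line. XX lines were thus lower in 2i and higher in S, and the 95% interval of the XX minus XY difference was -0.32 to 0.38. The interval was -0.10 to 0.77 for Suz12 and -0.86 to 0.32 for Ezh1. Whether the sex difference itself differed between the crosses was not tested.

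**Figure D5:**
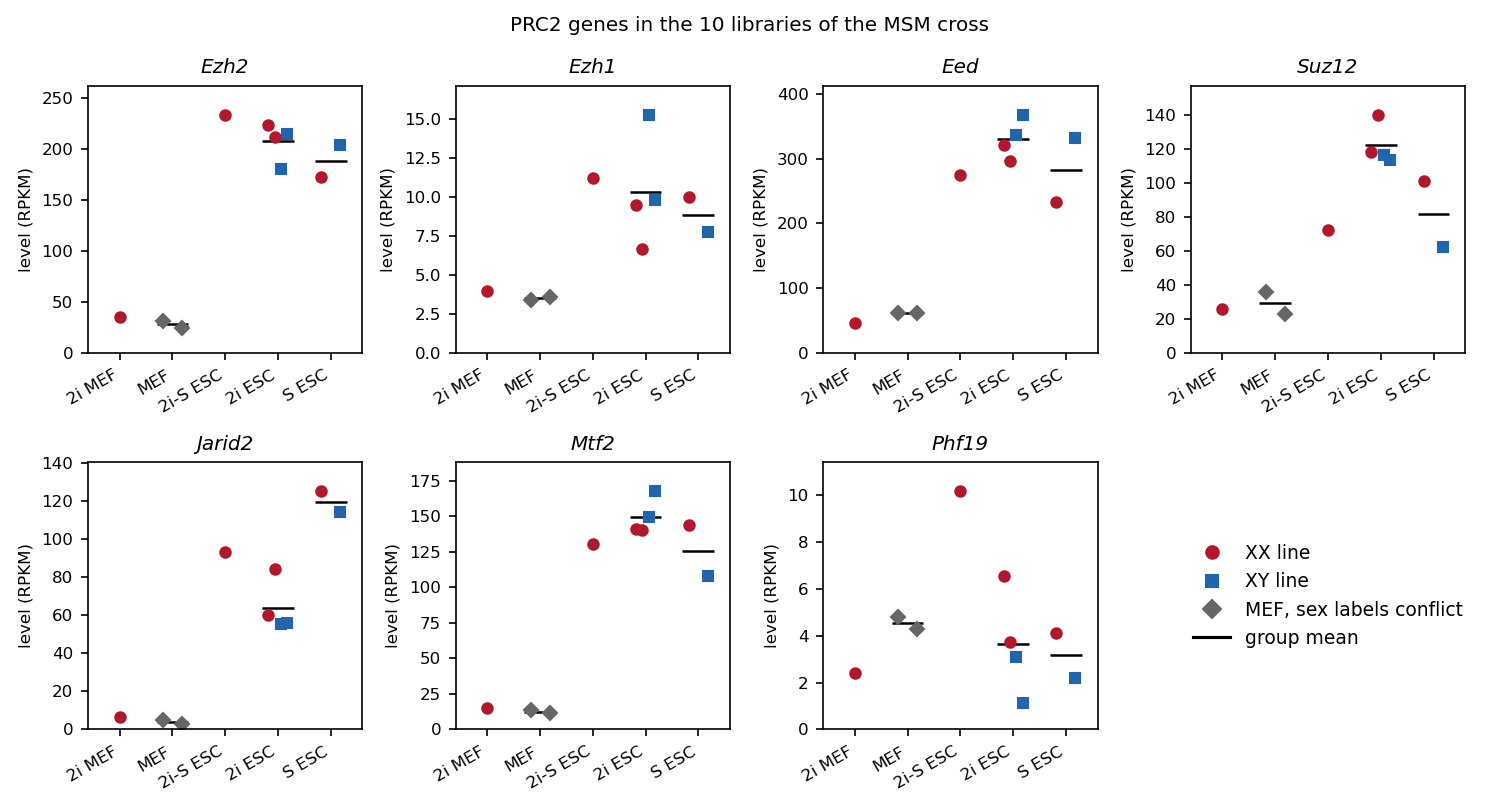
RPKM (vertical axes, starting at 0) of the 7 genes in the 10 libraries of the MSM cross, by culture group, with XX lines as red circles, XY lines as blue squares, MEFs as grey diamonds and group means as bars. Jarid2, Mtf2, Ezh2 and Eed are far lower in the 3 fibroblast libraries than in the ESC libraries, and Phf19 is not.

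In the 2i-S library Jarid2 had 93.3 RPKM, between the 2i and S lines, while Suz12 had 72.4 RPKM, below each 2i line. Phf19 had 10.2 RPKM, above all other MSM-cross libraries. In 2i the same line 15 had 119 RPKM of Suz12, 60.0 RPKM of Jarid2 and 6.56 RPKM of Phf19, the highest Phf19 level of the 2i lines. The fit set 2i-S against all 2i lines, with a sex term, and not against line 15 alone. None of the 7 was called in 2i-S against 2i, where 1.22% of all genes were called. The differences were -0.91 for Suz12 (SE 0.28, adjusted p = 0.16), 0.96 for Phf19 (SE 0.42, adjusted p = 0.30) and 0.42 for Jarid2 (SE 0.27, adjusted p = 0.51). With 1 library, its spread was assumed to equal that of the other groups, and passage number cannot be told apart from the change of medium. Its fibroblast RNA share was 1.52%.

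In MEFs, 6 of the 7 genes were lower than in 2i ESCs, and Phf19 was not called. This comparison called 71.1% of all genes, and 41.2% of all genes were lower. The 3 fibroblast libraries were the lowest of the series for Ezh2, Ezh1, Eed, Suz12, Jarid2 and Mtf2. How many of all genes have this order was not counted. Jarid2 had 4.70 and 2.96 RPKM in MEF 2 and MEF 4, against 55.2 to 84.5 RPKM in 2i ESCs, a difference of -3.75 (SE 0.20, adjusted p = 1.6e-06, n = 2 and 4). Mtf2 had 13.8 and 11.3 RPKM in the MEFs, against 140.3 to 168 RPKM in 2i ESCs, a difference of -3.48 (SE 0.16, adjusted p = 9.5e-07). Both stood at a small part of their ESC level.

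For the core subunits the differences were smaller in size, which was not itself tested. Ezh2 had 31.2 and 24.6 RPKM in the MEFs, against 181 to 223 RPKM in 2i ESCs, a difference of -2.85 (SE 0.15, adjusted p = 1.6e-06). Eed had 61.8 and 61.0 RPKM in the MEFs, against 297 to 368 RPKM in 2i ESCs, a difference of -2.41 (SE 0.12, adjusted p = 1.2e-06). Suz12 had 35.7 and 22.9 RPKM in the MEFs, against 114 to 140.3 RPKM in 2i ESCs, a difference of -2.05 (SE 0.20, adjusted p = 4e-05). For these genes each MEF stood far below each ESC line. Ezh1, at 3.38 and 3.60 RPKM in the MEFs and 6.63 to 15.3 RPKM in 2i ESCs, differed by -1.28 (SE 0.27, adjusted p = 0.0031). Phf19 had 4.81 and 4.28 RPKM in the MEFs, within the 1.14 to 6.56 RPKM of the 2i ESCs, and differed by 0.40 (SE 0.30, adjusted p = 0.27). The 14 cell cycle genes checked were all lower in the MEFs as well, with summed levels of 657 and 839 RPKM in MEFs and 2485 to 2737 RPKM in 2i ESCs, and their part in the difference was not tested. In the 2i MEF library the 7 genes had 35.6 RPKM (Ezh2), 3.94 RPKM (Ezh1), 46.0 RPKM (Eed), 25.9 RPKM (Suz12), 15.0 RPKM (Mtf2), 2.43 RPKM (Phf19) and 6.26 RPKM (Jarid2). None was called against the MEFs, where 0.454% of all genes were called.

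Ordered by group mean, Jarid2 was highest in MSM-cross S lines (120 RPKM), then in 2i-S, B6-cross serum (79.1 RPKM), MSM-cross 2i, and a2i, 2i and t2i of the B6 cross (51.2, 49.2 and 45.5 RPKM), with fibroblasts last. Below 2i-S, neighbours in this order overlapped down to the gap between t2i and the fibroblasts. Eed ran from MSM-cross 2i (331 RPKM) through B6-cross 2i (320 RPKM), a2i (288 RPKM), t2i (285 RPKM), S and 2i-S to B6-cross serum (229 RPKM), where the serum group overlapped neither neighbour in the order but did overlap S, whose XX line 8 had 233 RPKM. Suz12 and Mtf2 were likewise highest in 2i, first in the MSM cross (122 and 150 RPKM) and then in the B6 cross (119 and 135 RPKM), with overlap between all neighbouring ESC groups. Ezh1 was highest in B6-cross serum (14.2 RPKM) and Phf19 in 2i-S, with B6-cross serum next (9.31 RPKM) and B6-cross 2i last (2.42 RPKM).

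Of 6 further PRC2 subunits and partners, none was called in 2i against serum of the B6 cross, against a median difference of 0.06 for the list and -0.09 for all genes. In 2i against S of the MSM cross, where 17.0% of all genes were called, Phf1 was higher by 0.99 (SE 0.24, adjusted p = 0.029) and Rbbp7 lower by -0.52 (SE 0.12, adjusted p = 0.026). Both calls were lost without 2i XY line 20, 2i XY line 23 or S XY line 12, and that of Rbbp7 also without S XX line 8. The 2i minus serum effect on Rbbp7 also differed between the crosses, by 0.61 (SE 0.13, adjusted p = 0.0086), a call lost without S XY line 12. Cross and batch cannot be told apart there either. Aebp2, a partner of Jarid2 in its form of the complex, was lower in t2i than in 2i by -0.45 (SE 0.10, adjusted p = 0.012) and lower in a2i than in 2i by -0.37 (SE 0.10, adjusted p = 0.022). Each of these calls was lost on leaving out single libraries, 2i XX line 3 and 2i XY line 2 among them in both (-0.39 and -0.38 in t2i against 2i, -0.30 and -0.29 in a2i against 2i). In XX against XY lines of the B6 cross, 4 of the 6 were higher and 1 was lower, where 21.4% of all genes were higher and 20.0% lower, with a median of 0.27 against -0.01 for all genes. The 5 called were E130012A19Rik, which RefSeq names Epop and which binds elongin, at 1.04 (SE 0.15, adjusted p = 0.00017), Aebp2 at 0.38 (SE 0.07, adjusted p = 0.00059), the histone-binding subunit Rbbp7, which is X-linked, at 0.29 (SE 0.05, adjusted p = 0.00024), Lcor at 0.25 (SE 0.08, adjusted p = 0.025), and Phf1, the third Polycomb-like gene, at -0.38 (SE 0.11, adjusted p = 0.013). The Lcor call was lost after quantile normalization (0.13) and without the serum libraries (0.23), and the other 4 were called in each of the 22 alternatives run. In the MSM cross (3.44% of all genes called) 1 of the 6 was called, Rbbp7, at 0.67 (SE 0.11, adjusted p = 0.024). The demethylases Kdm6a, which is X-linked, and Kdm6b remove the PRC2 mark. Kdm6a was higher in XX lines of the B6 cross by 0.92 (SE 0.07, adjusted p = 5e-07), and Kdm6b was not called there. In the MSM cross 1 of the 2 demethylases was called higher in XX lines.

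Genes of Polycomb repressive complex 1, which binds the PRC2 mark or works beside it, were called in 10 of 20 cases in 2i against serum of the B6 cross, 4 higher and 6 lower, close to the 47.6% of all genes called (16.8% higher and 30.7% lower). Bmi1, a RING finger subunit, was higher by 0.91 (SE 0.12, adjusted p = 6.1e-05). After subtraction and rescaling its difference was 2.29, a value that depends on the fibroblasts taken as reference. Phc1, a polyhomeotic subunit, was lower by -1.41 (SE 0.15, adjusted p = 8.5e-06). In XX against XY lines of the B6 cross 9 of the 20 were higher and 2 lower, beside 21.4% and 20.0% of all genes. None of the 20 was called in the MSM cross, where only 3.44% of all genes were called. The chromodomain gene Cbx8 was higher in XX lines of the B6 cross by 0.95 (SE 0.10, adjusted p = 1.3e-05). Cbx8 was also lower in t2i (-1.0, SE 0.15, adjusted p = 0.0017) and a2i (-1.16, SE 0.15, adjusted p = 0.00035) than in 2i. Of 24 developmental genes known as PRC2 targets in ESCs, 14 passed the filter in the B6 cross, and 5 of them were lower and none higher in 2i than in serum, where 30.7% of all genes were lower. Pax6 differed by -1.67 (SE 0.15, adjusted p = 1.2e-06) and Gata6 by -1.40 (SE 0.25, adjusted p = 0.00059), with Gata4 at -1.45 (SE 0.33, adjusted p = 0.0031) and Hand1 at -1.22 (SE 0.20, adjusted p = 0.00024). Gata4 and Gata6 are also in the primitive endoderm list and Hand1 in the trophoblast list, whose sums were higher in serum. These 4 were still called after subtraction and rescaling for fibroblast RNA. In 2i against S of the MSM cross, where 17.0% of all genes were called, 13 targets were tested. Of these, 2 were higher, Tbx3 by 2.57 (SE 0.31, adjusted p = 0.0025) and Cdkn2a by 1.33 (SE 0.22, adjusted p = 0.0075), and 1 was lower, Pax6 by -1.04 (SE 0.18, adjusted p = 0.0076). The Cdkn2a and Pax6 calls were lost without S XX line 8 or S XY line 12.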

How the data were processed

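RNA levels were the deposited RPKM values of 26 libraries, 1 table in all, made per the labels with a stranded mRNA kit. The submitters' processing notes list Cufflinks 2.2.1, Bowtie2 2.2.5, TopHat2 2.1.0, cutadapt 1.9.1 and the mm10 build, without roles. The sources used here name no annotation release. In all, 62 bisulfite samples were left out. Values were taken as log2(RPKM + 1), which understates changes of low genes such as Phf19, with no further scaling. A gene entered a fit if 2 or more of its libraries reached 1 RPKM. Fits used limma 3.58.1 (R 4.3.3, eBayes with trend), p-values were Benjamini-Hochberg adjusted over every gene fitted, and an adjusted p under 0.05 was a call.

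In the B6 cross, 8 means (medium by sex) left 8 residual degrees of freedom. In the MSM cross, 5 group means and a sex term among ESCs left 4, and the test between crosses had 8. The sex difference within each medium and the test of the sex effect between a2i and t2i were added after seeing the data, as were the block on line number, the fit without serum for the sex difference and some fibroblast subtractions. Depth was estimated only relative to B6-cross 2i XX line 3, from the step between low values, at 0.768 to 1.87 times, and no counting intervals are given. Replicate libraries correlated at 0.977 to 0.996 and none were identical. Alternatives were a pseudocount of 0.1 RPKM, no filter, quantile normalization, fibroblast subtraction, fits of 2 media, and leaving out each library. The fit of 2i against serum in the B6 cross was tested on simulated data with independent noise. The other comparisons were not tested in this way. Genes were named by a rule: the 7 members, the members of lists of up to 6 genes, up to 4 called genes with the greatest change from longer lists, and the 3 genes most like each member. Not all of those are printed, and 1 gene like Jarid2 is not reported here. The members and lists were chosen with earlier results of these data known. Figures used Python 3.11.15 and matplotlib 3.10.9.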

Additional observations from a re-analysis of the deposited data

Results flagged for a closer look

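Jarid2 in MSM-cross 2i was 84.5 RPKM in XX line 2, against 55.2, 56.0 and 60.0 RPKM in the other lines, and the gap to its nearest neighbour was 0.836 of the group's range. Of 35 sets of values looked at in this way, chance picks about 1 in 20. Without that line, Jarid2 was still called lower in 2i than in S (-1.04, adjusted p = 0.014).

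The XX minus XY difference of Ezh1 differed between a2i and 2i by 0.86 (limma, adjusted p = 0.03), a call that held in 4 of 11 alternatives.

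The 2i minus serum difference of Phf19 differed between the B6 and MSM crosses by -1.59 (limma, adjusted p = 0.025), a call that held in 12 of 19 alternatives. Cross and sequencing or processing batch cannot be told apart in this test.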

How the results depend on the processing

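In 4 cases the direction turned. After quantile normalization the sex effect in a2i relative to 2i was 0.025 for Eed, and the sex effect in a2i relative to t2i was 0.036 for Ezh2 and 0.071 for Eed. Mtf2 in 2i against S was -0.032 without S XY line 12 (-0.032 to 0.55 without single libraries). The number of PRC2 genes called became 2 in t2i against 2i (pseudocount 0.1 RPKM; no filter), 1 in a2i against 2i (no filter; quantile normalization; 2 media only), 2 in t2i against serum and 0 in the a2i minus 2i sex effect (quantile normalization), 0 between crosses (fibroblast RNA subtracted) and 1 in a2i against serum (subtracted and rescaled). Genes called in all became 17 and 113 in 2i MEF against MEF (pseudocount 0.1 RPKM; no filter), 165 in XX against XY of the MSM cross (no filter), 28 in the a2i minus t2i sex effect (quantile normalization), 23 in a2i against t2i (2 media only), and, with fibroblast RNA subtracted and then also rescaled, 88 and 109 in 2i-S against 2i and 765 and 752 between crosses.

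Without single libraries, PRC2 genes called ranged from 0 to 1 in 2i against S, between crosses, in XX against XY in t2i, in a2i against 2i, in the a2i minus 2i sex effect and in t2i against 2i. They ranged from 1 to 3 in XX against XY in 2i, and from 2 to 4 in a2i and in t2i against serum. Genes called in all ranged from 7 to 109 (2i MEF against MEF), 662 to 2257 (2i against S), 699 to 1759 (between crosses), 0 to 106 (2i-S against 2i), 110 to 463 (XX against XY, MSM cross), 17 to 196 (a2i against t2i) and 569 to 904 (t2i against 2i). For XX against XY they ranged from 2153 to 2640 in a2i, 1260 to 1702 in t2i, 1965 to 2332 in 2i and 419 to 726 in serum. For the sex effect they ranged from 161 to 497 (a2i minus 2i), 2 to 48 (a2i minus t2i), 46 to 123 (t2i minus 2i) and 582 to 925 (2i minus serum). The cause was not tested.

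In t2i and 2i, 3 line numbers recur (XX 3, XY 2 and XY 6). Deviations of same-numbered libraries correlated at -0.27 for XX 3 and 0.01 for the XY lines, whose deviations mirror each other and give 1 value. With 2 libraries per sex and medium, each deviation also holds the other line. These values therefore cannot tell whether equal numbers mark one line, and the numbers were not taken as pairs. With line number as a replicate block, 3 genes and 0 PRC2 genes were called, against 15 and 0 in the same 6 libraries with no block. No paired analysis was possible for the other comparisons because the groups share fewer than 2 line numbers. Depth is unknown, which limits what can be said of Phf19, the lowest of the 7 genes.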
